A study of Lens culinaris with 18 samples.

Results

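The change of root expression between 24 h and 96 h of water deficit was followed directly, within roots kept in polyethylene glycol (PEG). The comparison sets 2 libraries of root at 96 h of PEG against 2 libraries of root at 24 h of PEG. It covers the assembled transcripts that reached 1 or more in 2 or more of these 4 libraries, which were 25144 of the 124151 in the table. All groups were wild-type lentil (Lens culinaris), cultivar Sultan, moved to aerated nutrient solution as seedlings of 7 days. The 96 h and 24 h PEG roots both had 15% PEG 6000 in that solution, and the 96 h and 24 h control roots, used here as the unstressed series, did not. Each group held 2 biological replicates of wild-type seedlings from 1 cultivar, and the number of plants behind a library is not stated in the labels. The series holds 18 samples, of which 16 had values and 2 stem samples were not analysed here.

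PEG 6000 is a large, inert polymer that holds water back from the root without crossing the cell wall. Roots meet such a deficit first: they are known to accumulate compatible solutes, to signal through abscisic acid and to alter growth, cell walls and water channels, with an early phase that differs from later acclimation. The identifiers in the table come from an assembly without a genome and are not paired with gene names, so none of these pathways could be looked up and no tissue marker could be checked. Transcripts are therefore described by level, by direction and by where else they were found, and at most 2 that rose and 2 that fell are named. As the steps between low values show, the values are TPM (reads per transcript length, scaled to 1000000 per library) multiplied by 1 TMM factor per library. In bulk tissue, fewer cells of a type and less RNA per cell cannot be told apart.

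The 4 PEG root libraries had totals of 514669 and 550614 at 96 h and 592659 and 595410 at 24 h. None was dominated by the transcript pair that made up 92.4% of root 24 h control replicate 2, and that pair took at most 0.0991% of each. The pair also held 23.3% of root 24 h control replicate 1, against 0.0338% and 0.0272% of the 96 h root controls. Read depth was unknown. Replicates lay close together, with Pearson correlations on the log2 scale of 0.98 between the 96 h libraries and 0.97 between the 24 h libraries, and 0.76 to 0.78 between a 96 h and a 24 h library. These values cover 25144 transcripts that share the same 4 libraries. The median absolute log2 difference between replicates was 0.16 at 96 h and 0.27 at 24 h.

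In the fit of the 4 PEG root libraries, a large share of the transcripts differed between the times. At an adjusted p under 0.05 (limma with Benjamini-Hochberg adjustment), 13610 of 25144 changed, which is 54.1%. Of these 8408 (33.4% of those tested) rose and 5202 (20.7%) fell at 96 h. At least 2-fold changes were made by 5746 that rose and 3221 that fell, at least 4-fold changes by 1461 and 761, and at least 16-fold changes by 106 and 95. The median absolute change was 0.75 on the log2(value + 1) scale, and 10 in 100 transcripts changed by more than 1.91. Both 96 h libraries stood above both 24 h libraries for 12126 transcripts (48.2%) and below both for 7902 (31.4%).

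The balance of rises and falls turned on the scaling, whereas the number of calls moved little. As deposited, the median log2 fold change of all 25144 transcripts was 0.23, and rises were 61.8% of calls. With median-ratio size factors the median was 0.01, with 6690 rises and 6648 falls. With the 4 libraries scaled to the same total it was 0.36, with 9470 rises and 4464 falls. No excess of rises over falls can therefore be read from these data, and the direction of a small change depends on the scaling. The test also rested on the 96 h pair: without 96 h PEG replicate 1 or 2 limma made 0 calls after adjustment, with 9758 and 10177 transcripts at an unadjusted p under 0.05. Without 24 h PEG replicate 1 or 2 it made 12105 and 10902 calls, and with the spread of all 8 root libraries 9715.

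Abundant transcripts fell more often than they rose, and this held at each of the 3 scalings. Of 801 transcripts with a mean between 100 and 1000 over the 4 libraries, 149 rose and 316 fell, and the median log2 fold change was −0.29. With median-ratio size factors 111 rose and 401 fell, and with the same total per library 201 rose and 290 fell. Of the 33 transcripts at 1000 or more, 5 rose and 15 fell. Between 10 and 100 the majority turned with the scaling, at 2152 rises and 2401 falls as deposited but 2550 and 2025 with the same total. Among the 14360 transcripts between 1 and 10 the order was the other way, with 5090 rises and 2021 falls. The filter bears on the low classes: 3411 transcripts passed it through the 96 h libraries alone and 1562 through the 24 h libraries alone, so their differences follow in part from how they were chosen.

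**Figure D1:**
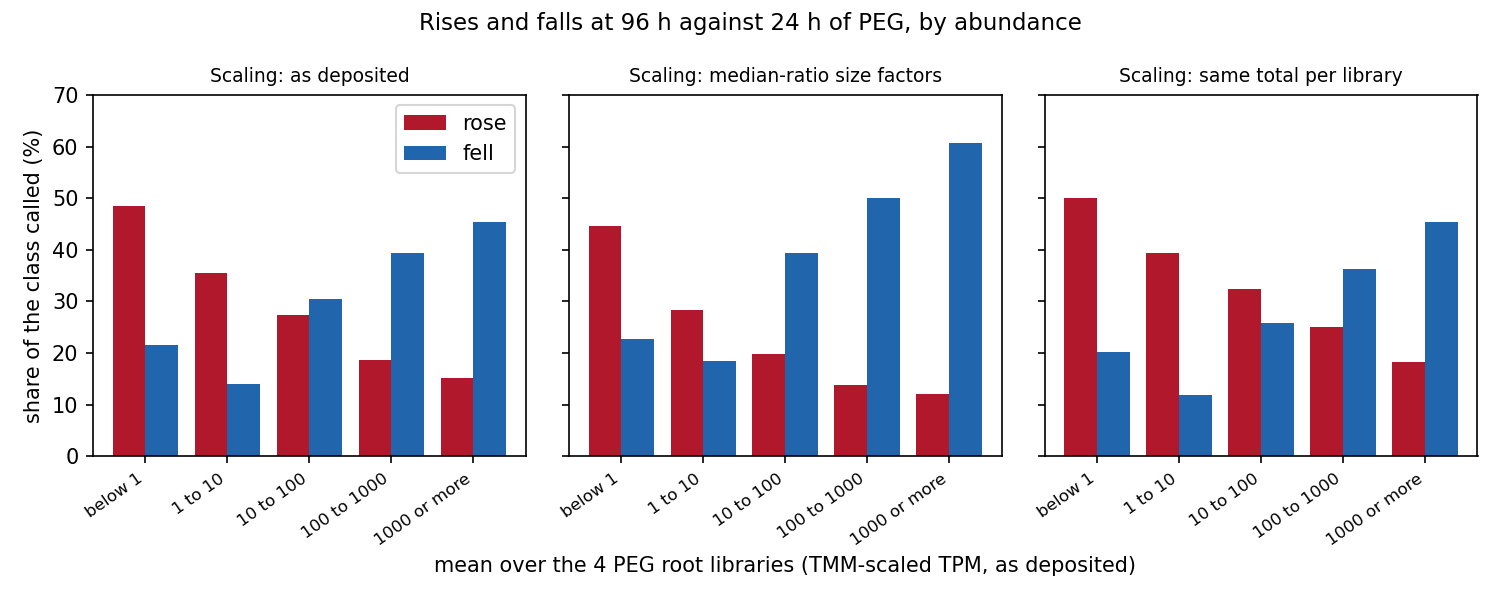
Share of transcripts that rose (red) or fell (blue) at 96 h against 24 h of PEG (limma, adjusted p under 0.05), in 5 classes of mean value over the 4 PEG root libraries, at 3 scalings. Falls exceed rises in the classes from 100 upward at each scaling, as with 316 falls and 149 rises between 100 and 1000 as deposited, and rises exceed falls below 10.

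The signal was spread over more transcripts at 96 h than at 24 h. The 100 most abundant transcripts of a library took 18.1% and 19.6% of its total at 96 h, and 22.9% and 23.3% at 24 h. The effective number of transcripts, the exponential of the Shannon entropy of the shares, was 7486 and 6586 at 96 h and 4759 and 4666 at 24 h. Both measures use shares within a library, so no scaling factor enters them, and the groups did not overlap in either. With 2 libraries against 2, an exact permutation test cannot go below p = 0.333, so no test was made. More transcripts were also above 0 at 96 h, 64976 and 62230, than at 24 h, 49856 and 52173. The unstressed roots had 75080 and 71474 at 96 h and 45879 and 24351 at 24 h. Their effective numbers were 6354 and 6319 at 96 h and 1590 and 4.42 at 24 h. The dominant pair held 23.3% and 92.4% of these 24 h controls, which lowers each other share, and its part was not tested. The part of sequencing depth in these counts was not tested because depth was unknown.

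**Figure D2:**
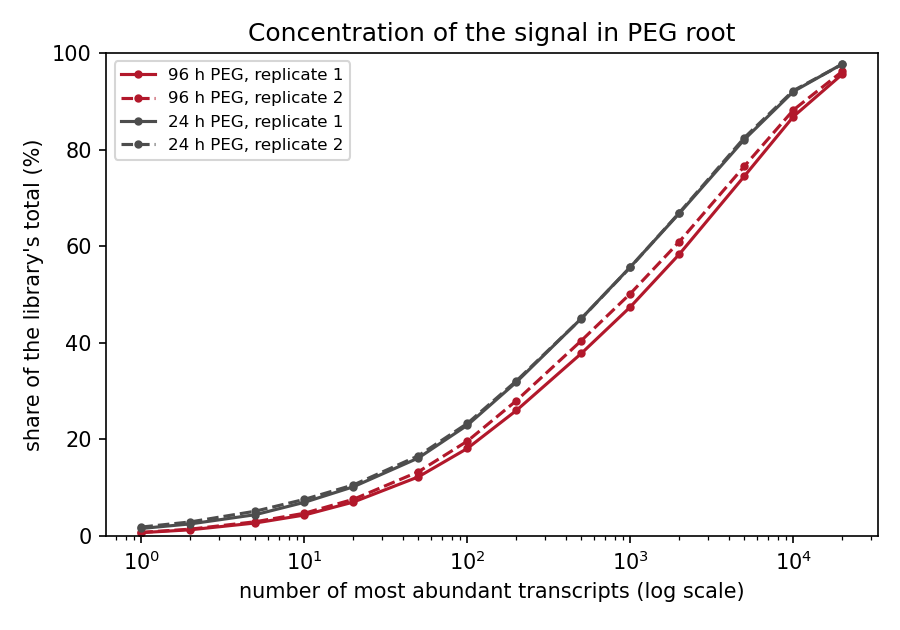
Cumulative share of each library's total (y axis, percent) held by its most abundant transcripts (x axis, number of transcripts, log scale), for the 2 libraries at 96 h (red) and the 2 at 24 h of PEG (grey). Both 96 h curves run below both 24 h curves from the first transcript on, with 18.1% and 19.6% against 22.9% and 23.3% at 100 transcripts.

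The lists of leading transcripts overlapped in part. Of the 10 most abundant at 96 h by group mean, 2 were among the 10 most abundant at 24 h, and of the 100 most abundant 63 were shared. Of the 100 that led at 24 h, 4 rose and 51 fell by 96 h, beside 33.4% rising and 20.7% falling among all transcripts, and together they held 14.6% and 15.9% of the libraries at 96 h and 22.7% and 23.2% at 24 h. Of the 100 that led at 96 h, 28 rose and 17 fell, which is near those shares of all transcripts, and together they held 18.1% and 19.6% of the libraries at 96 h and 17.8% and 17.4% at 24 h. Each list was chosen at 1 time, which by itself favours falls in the first and rises in the second.

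Among transcripts above 0 in all 4 libraries with a group mean of at least 10, the largest log2 fold change and the largest difference of means in each direction are named. TRINITY_DN44503_c1_g2, the largest relative rise among these, was at 1489 and 1691 at 96 h of PEG and at 24.4 and 12.4 at 24 h of PEG. It ranked 14th by level at 96 h and 5219th at 24 h, and it rose by 6.43 on the log2(value + 1) scale, with a standard error (SE) of 0.33 and an adjusted p of 0.00119 in limma. The unstressed roots held 224 and 222 at 96 h and 423 and 157 at 24 h, so PEG root stood above both controls of its age at 96 h and, as deposited, below both at 24 h. As a share of the library the 24 h groups overlapped, at 0.00411% and 0.00208% in PEG root and 0.0630% and 0.00270% in control root, where replicate 2 was the dominated library. In leaf it was at 5.56 or below in each of the 8 libraries.

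TRINITY_DN44787_c1_g1, the other rise, with the largest difference of means, was at 1744 and 1830 at 96 h of PEG and at 230 and 94.8 at 24 h of PEG. The rise was 3.59 on the log2 scale, with an SE of 0.43 and an adjusted p of 0.00426 in limma. The 24 h libraries were more than 2-fold apart, yet both lay far below both 96 h libraries. In unstressed root it was at 1179 and 1202 at 96 h and at 533 and 166 at 24 h, also higher at the later time in both libraries, and its change over time did not pass the test of a difference between PEG and unstressed root (1.59, SE 0.86, limma adjusted p = 0.209). All 3 tested transcripts of its assembly component rose, this one included, and members of a component are not independent.

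TRINITY_DN48382_c1_g2, the largest relative fall among these, was at 0.813 and 0.121 at 96 h of PEG and at 504 and 786 at 24 h of PEG. It stood 106th by level at 24 h, and its change was −8.79 on the log2 scale, with an SE of 0.33 and an adjusted p of 9.45e-04 in limma. The value depends on the pseudocount, from −10.45 with 0.1 to −6.86 with 5. In unstressed root it was at 0.112 and 0.0530 at 96 h and at 5.58 and 44.7 at 24 h, so the 24 h PEG libraries were highest among the 8 root libraries. Both tested transcripts of its component fell, this one included, and they are not independent.

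TRINITY_DN49956_c5_g4, the most abundant transcript at 24 h of PEG, was at 1273 and 1596 at 96 h and at 8860 and 10640.4 at 24 h. It took 0.247% and 0.290% of the libraries at 96 h and 1.49% and 1.79% at 24 h, a change of −2.77 on the log2 scale with an SE of 0.18 and an adjusted p of 0.00173 in limma. Unstressed root held 2497 and 2552 at 96 h and 6981 and 10996.3 at 24 h, which as deposited is also lower at the later time. As a share of the library the unstressed groups overlapped, at 0.423% and 0.430% at 96 h and 1.04% and 0.189% at 24 h. The 0.189% is from replicate 2, where the dominant pair held 92.4% and so lowered each other share. The other tested transcript of its component did not pass the test. The difference between the time changes with and without PEG did not pass the test (−0.97, SE 0.36, limma adjusted p = 0.0887). None of the calls for these 4 transcripts held without 96 h PEG replicate 1 or 2, when adjusted p in the limma fit reached 0.0995 for TRINITY_DN44787_c1_g1 and 0.0761 for the others, and none of their directions changed in the 10 alternatives run.

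**Figure D3:**
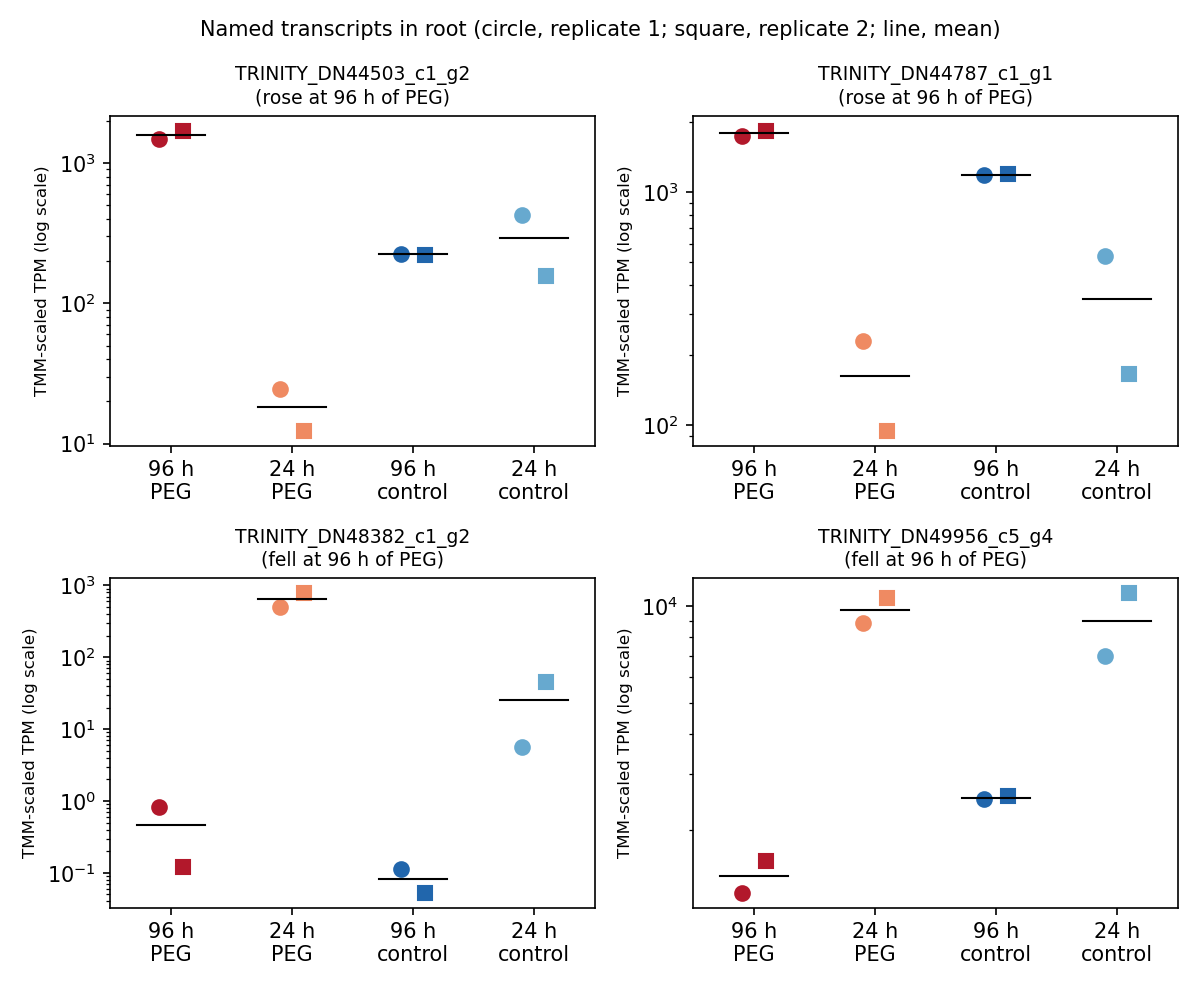
Values of the 4 named transcripts in the 8 root libraries (y axis, TMM-scaled TPM, log scale; circles are replicate 1, squares replicate 2, lines the mean of 2). TRINITY_DN44503_c1_g2 is at 1489 and 1691 at 96 h of PEG against 24.4 and 12.4 at 24 h of PEG, with the controls in between, and TRINITY_DN48382_c1_g2 is at 504 and 786 at 24 h of PEG and at or below 44.7 elsewhere.

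The 25 largest rises and the 25 largest falls, among the transcripts that met the same limits, are described together. The rises had log2 fold changes between 4.69 and 6.43, with values of 26.6 to 1691 at 96 h and 0.0530 to 44.4 at 24 h. Their median was 79.5 and 86.1 in the 96 h PEG libraries, 0.593 and 1.52 in the 24 h PEG libraries, 4.40 and 4.84 in the 96 h controls, and 15.3 and 7.29 in the 24 h controls. They came from 25 different assembly components, and 15 of them were below 1 in each of the 8 leaf libraries, beside 13.6% of all 25144 transcripts. In unstressed root 6 of the 25 were higher at 96 h than at 24 h without overlap, 11 were lower and 8 overlapped, where 39.0% of all 25144 transcripts were higher and 22.7% lower. These shares turned with 24 h control replicate 2, the dominated library. Without it 44.0% of all transcripts were higher and 47.1% lower, and the 25 rises were not recounted.

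The 25 largest falls had log2 fold changes between −8.79 and −5.41, with values of 0.0280 to 95.0 at 96 h and 53.1 to 6361 at 24 h. Their median was 3.93 and 3.96 in the 96 h PEG libraries, 383 and 412 in the 24 h PEG libraries, 4.67 and 4.24 in the 96 h controls, and 21.5 and 68.2 in the 24 h controls. They came from 21 components, of which 2 gave more than 1 transcript and 1 gave 4. In unstressed root 24 of the 25 were also lower at 96 h without overlap, and 1 overlapped, where 22.7% of all transcripts were lower. Without 24 h control replicate 2, the dominated library, 47.1% of all transcripts were lower, and these 25 falls were not recounted. Their median at 24 h was higher in both PEG libraries than in either control library, which the choice by the fall from 24 h of PEG itself favours. Being below 1 in each leaf library was less frequent here than among the 25 rises, at 10 of 25 against 15 of 25, a difference that was not tested. Among all transcripts the share was 13.6%.

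Some transcripts were near absent at 1 time and well above it at the other. From under 0.5 in both 24 h PEG libraries, 68 transcripts reached 10 or more in both 96 h PEG libraries, and 38 went the other way. Those that appeared had a median of 16.6 over their 96 h group means, the highest of which was 204. That transcript was listed at 0 in both 24 h PEG libraries and so is not among the 25 above. At the same time 34 of the 68 were at 1 or more in both 96 h controls. In the 24 h controls, 50 of the 68 were at 1 or more in replicate 1 and 33 in replicate 2. Of the 38 that disappeared, 10 were at 1 or more in both 96 h controls, 30 in 24 h control replicate 1 and 27 in replicate 2. Under 0.5 in all 4 control root libraries were 7 of the 68 and 4 of the 38. The same shares among all transcripts were not counted, so no excess or lack can be read from these counts in the controls. The counts follow the limits and single libraries: with limits of 0.2 and 20 they were 9 and 9, with limits of 1 and 5 they were 398 and 155, and without 24 h PEG replicate 2 they were 133 and 70. Without 24 h PEG replicate 1 they were 94 and 62.

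Listed at 0 in both 24 h PEG libraries and at 1 or more in both 96 h PEG libraries were 619 transcripts. The reverse held for 432. Most were low, with a median of 1.84 at 96 h in the first set and of 1.96 at 24 h in the second. Under 0.5 in all 4 control root libraries were 303 of the 619 and 220 of the 432, and listed at 0 in each of the 8 leaf libraries were 317 and 154. Shares among all transcripts, or among others as low, were not counted, so no excess or lack can be read from these counts. A listed 0 is no proof of absence, since depth was unknown.

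Root-enriched transcripts rose in 50.6% of cases at 96 h of PEG, beside 33.4% of all transcripts. The sets were taken from the 96 h controls, which are not part of the PEG comparison. Of 30048 transcripts tested there, 2369 were root-enriched and 1948 leaf-enriched, at least 4-fold apart with an adjusted p under 0.05 (limma). Of the root-enriched ones 1663 were tested in PEG root, and 842 rose and 307 fell, with a median log2 fold change of 0.82 beside 0.23 in all transcripts. They held 15.0% and 15.1% of the libraries at 96 h and 13.6% and 12.5% at 24 h. With median-ratio size factors 750 rose and 363 fell, with a median of 0.59 beside 0.01. The sets were defined at 96 h, the age at which the rise was seen, and no test of the set was made. The part in the 50.6% of transcripts that passed the filter through the 96 h PEG libraries alone was not tested.

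Leaf-enriched transcripts rose and fell in shares near those of all transcripts. Of 1132 tested, 389 rose (34.4%) and 200 fell (17.7%), with a median log2 fold change of 0.30, which is near the 0.23 of all transcripts. Their summed share nevertheless was lower at the later time, at 2.58% and 2.66% at 96 h and 4.21% and 4.45% at 24 h, so counts and median point one way and the sum the other. Transcripts that rose in PEG root were below 1 in each of the 8 leaf libraries in 1733 of 8408 cases (20.6%). Those that fell were so in 721 of 5202 (13.9%), beside 3427 of all 25144 (13.6%). At 1 or more in all 4 control leaf libraries were 4803 that rose (57.1%), 3550 that fell (68.2%) and 16623 of all (66.1%). The sets differed in level too, with medians in the 96 h control roots of 4.51 and 4.55 for the rises and 7.96 and 7.96 for the falls. Of all tested, 3411 passed the filter through the 96 h PEG libraries alone and 1562 through the 24 h ones. The part of level and filter in these leaf shares was not tested.

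In the unstressed roots the changed transcripts had median levels between those of the PEG groups, which the choice by the PEG libraries itself favours. For the 8408 that rose, the median level was 6.98 and 6.68 in the 96 h PEG libraries, 1.73 and 1.60 in the 24 h PEG libraries, 4.51 and 4.55 in the 96 h controls, and 4.52 and 2.68 in the 24 h controls. For the 5202 that fell it was 5.76 and 6.05 in the 96 h PEG libraries, 15.2 and 16.1 in the 24 h PEG libraries, 7.96 and 7.96 in the 96 h controls, and 8.08 and 7.12 in the 24 h controls. The PEG medians are a description, since these libraries chose the transcripts. Over all 25144 transcripts the medians were 5.94 and 5.83 in the 96 h PEG libraries and 4.46 and 4.30 in the 24 h ones. The controls were there at 5.55 and 5.52 at 96 h and at 5.42 and 3.91 at 24 h. For the falls the 24 h PEG libraries stood above each control library, as did the 96 h PEG libraries for the rises.

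**Figure D4:**
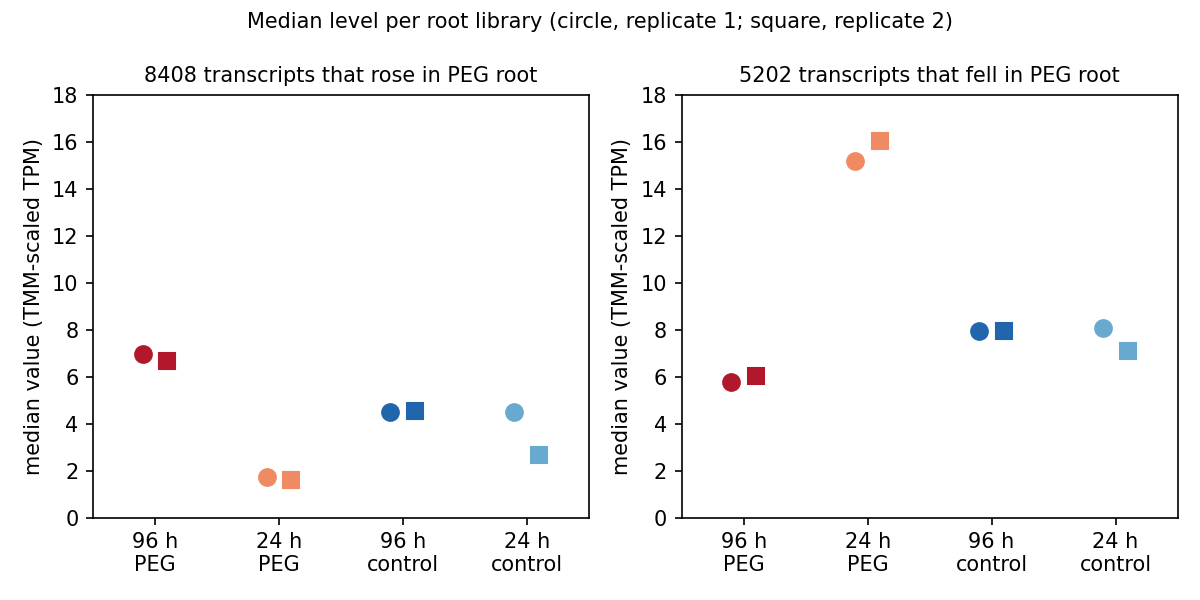
Median value (y axis, TMM-scaled TPM) of the 8408 transcripts that rose and the 5202 that fell in PEG root, in each of the 8 root libraries (circles are replicate 1, squares replicate 2). The control libraries lie between the PEG groups, at 2.68 to 4.55 for the rises and 7.12 to 8.08 for the falls. The choice of the transcripts by the PEG libraries itself favours this position.

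Unstressed root of the same ages shares no library with the PEG comparison. The time changes with and without PEG were weakly related over the 25144 transcripts, at r = 0.11 (Pearson) and rho = 0.05 (Spearman), and Pearson's r was 0.05 without 24 h control replicate 2 and 0.14 without replicate 1. Without PEG 1687 transcripts changed (6.71%), 1306 of them up and 381 down (limma, adjusted p under 0.05). This count rests on the 24 h controls, whose median replicate difference was 0.61, against 0.08 in the 96 h controls: it was 13242 without 24 h control replicate 2, of which 50.1% rose, 16399 without replicate 1, of which 72.2% rose, and 0 without 96 h control replicate 1 or 2, with 2935 and 2911 at an unadjusted p under 0.05. It was also 0 with replicate number as a block (5005 at an unadjusted p under 0.05), 2 with equal library totals and 12 with no filter. The 96 h control libraries were the closest replicate pair among the 8 root and leaf groups over these transcripts, and without counts it could not be tested whether they differ by more than sampling noise.

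Rises without PEG were met by more rises than falls with PEG, but so were falls. Of the 1306 that rose without PEG, 646 rose with PEG (49.5%, or 7.68% of the PEG rises) and 231 fell. Of the 381 that fell without PEG, 96 fell with PEG (25.2%, or 1.85% of the PEG falls) and 154 rose (40.4%). The shares in all tested transcripts were 33.4% rising and 20.7% falling. This overlap rests on unstressed calls that the block and equal totals all but end, as given above. By non-overlap of libraries, 3431 of the 8408 PEG rises (40.8%) were also higher at 96 h without PEG and 1878 were lower. Of the 5202 PEG falls, 1263 (24.3%) were also lower and 1983 were higher. In all transcripts 39.0% were higher and 22.7% lower, which is near the shares in either set. Without 24 h control replicate 2 the lower ones were 4025 of the rises (47.9%) and 2273 of the falls (43.7%), beside 47.1% of all transcripts.

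Tested directly, the change over time differed between PEG and unstressed root for 7739 of the 25144 transcripts (30.8%), by the interaction term of limma at an adjusted threshold of 0.05. The change was more positive with PEG for 3691 and more negative for 4048. Among the 25 largest rises 24 passed with a more positive change, and among the 25 largest falls 18 passed with a more negative one, although these transcripts were chosen on the PEG side of the contrast. The split turned with the 24 h controls: more positive were 56.9% of 13086 without replicate 2 and 37.8% of 14604 without replicate 1, against 47.7% with both. The count was 3054 and 2991 without 96 h control replicate 1 or 2, 3705 and 4187 without 96 h PEG replicate 1 or 2, and 2513 with equal library totals.

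**Figure D5:**
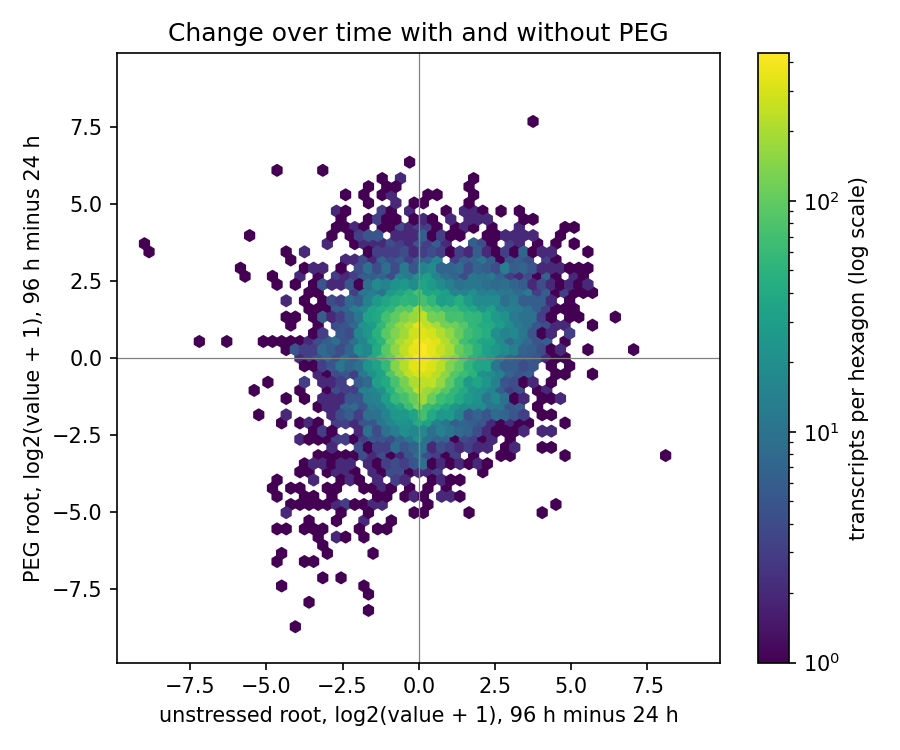
Change over time of each of 25144 transcripts (96 h minus 24 h on the log2(value + 1) scale) in PEG root (y axis) and in unstressed root (x axis); the colour gives transcripts per hexagon on a log scale, and changes beyond 9 in size are drawn at 9. The cloud shows no clear slope, with a Pearson r of 0.11.

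Leaf values were compared in the same way. In unstressed leaf 34.3% of the 25144 transcripts were higher at 96 h than at 24 h without overlap and 35.4% lower, and the PEG root rises were split alike, with 2935 higher and 2907 lower. In PEG leaf 15.2% were higher and 49.7% lower. The PEG root rises included 1443 that were higher (17.2%) and 3435 lower (40.9%), and the falls 757 higher (14.6%) and 2807 lower (54.0%). Both 96 h PEG leaf libraries were dominated by the transcript pair, at 81.1% and 76.3% of the total, so the level of the other transcripts there depends on the scaling.

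Transcripts of 1 assembly component mostly moved in 1 direction. Components group transcripts by shared assembled sequence, so reads could be divided among their members, and members are not independent. The 25144 transcripts came from 20488 components, 17066 of which had 1 tested transcript, and at most 13 were tested in a component. In 1086 components exactly 2 transcripts were called: both rose in 533, both fell in 327, and 226 held a rise and a fall. The share in 1 direction was 79.2%, beside 52.8% for all pairs of called transcripts in the table. Of the 1312 components with 2 or more called transcripts, 314 held both rises and falls.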

How the data were processed

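The authors deposited a signal for each assembled transcript that they labelled TMM expression. TPM was read from the values: in the PEG root libraries 100% of low values (above 0, below 0.5) fell on steps of TPM rounded to 0.01, to within 6e-04. Per the submitters' processing notes, the tools included FastQC 0.11.5, Trimmomatic 0.35, edgeR and RSEM, without roles. Assembler version, aligner and filters: not given in the sources used here.

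Values were tested as log2(value + 1) in limma 3.58.1 (R 4.3.3), using moderated variances with a trend and robust estimation. In the root comparisons p-values were adjusted by Benjamini-Hochberg over 25144 transcripts at 0.05. On this scale fold changes of low transcripts are understated. The PEG comparison used its 4 libraries alone, the unstressed one its own 4, and the interaction all 8 root libraries. Named transcripts were above 0 in all 4 libraries, had a group mean of at least 10, passed the test and did not overlap between the times. Replicates are biological per the labels, and the p-values cover only the spread among these libraries. Alternatives changed the pseudocount, scaling, filter, moderation, spread, replicate block and libraries. The method was also run on simulated data, drawn with the spread of the PEG root fit and with changes planted above a minimum level. That run did not bear on changes in low transcripts, on the scaling or on the dependence on single libraries. The transcripts and sets were chosen with earlier results of these data known.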

Additional observations from a re-analysis of the deposited data

Results flagged for a closer look

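A pair of named transcripts changed differently over time in PEG root than in unstressed root. Each was chosen for the largest PEG change in its direction, which is part of this contrast, so the choice favours a difference of that sign. TRINITY_DN44503_c1_g2 had a time change 6.64 log2 units more positive with PEG (SE 0.70, limma interaction adjusted p = 0.00228), from log2 fold changes of 6.43 with PEG and −0.21 without. TRINITY_DN48382_c1_g2 had a time change more negative with PEG (−4.79, SE 1.20, limma interaction adjusted p = 0.0276), from −8.79 with PEG and −4.00 without. The root 24 h controls enter both differences. In them 1 transcript pair held 23.3% of replicate 1 and dominated replicate 2, at 92.4%, and its part in the differences was not tested. In replicate 2 TRINITY_DN44503_c1_g2 took 0.00270% of the total, against 0.0630% in replicate 1.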

How the results depend on the processing

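The PEG root count kept within 1.5 times of 13610 with other pseudocounts and scalings, without trend or robust options, with the spread of other root libraries and with the replicate block (13577 calls; the replicate deviations of the PEG groups had a correlation of 0.07, and with 2 pairs a shared batch behind the numbers was not tested). It was 8967 with a 2-fold minimum, 6430 with no filter, 8789 with a filter at 5 (fewer transcripts tested), and 0 to 12105 with single libraries left out. The interaction count was 2513 with the same total, 5154 with the filter at 5, and 2991 to 14604 with single libraries left out. The unstressed count was 1051 with a pseudocount of 0.1, 3033 with median-ratio size factors, 2 with the same total, 12 with no filter, 0 with the replicate block (5005 at an unadjusted p under 0.05 in limma) and 0 to 16399 with single libraries left out. Root against leaf in the 96 h controls gave 23240 calls among 30048 transcripts tested. It gave 13040 with the filter at 5 (fewer transcripts tested) and 13079 to 22078 with single libraries left out. Calls in the root-enriched and leaf-enriched sets ran from 0 to 1085 and from 0 to 525 with single PEG libraries left out, and otherwise stayed within 1.5 times. Of root and leaf calls 73.5% were higher in root with the same total, against 61.9% as deposited, and leaf-enriched rises were 308 against 259 falls with median-ratio size factors. The causes were not tested. With unknown depth, no detection limit can be given, and with 2 libraries a group the spread rests on few values.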

Other observations

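TRINITY_DN49956_c5_g4, which led PEG root at 24 h, had its highest deposited values in leaf at 96 h of PEG. It was at 270081 and 292405 there, against 8106 and 13704 in leaf at 24 h of PEG. In unstressed leaf it was at 12983 and 14456 at 96 h and at 10756 and 2917 at 24 h. As a share of the library it held 3.86% and 4.36% in leaf at 96 h of PEG and 1.08% and 1.70% in leaf at 24 h. In root at 24 h of PEG it held 1.49% and 1.79%. The 96 h PEG leaf libraries had totals of 6997680 and 6699070. They are those dominated by the transcript pair, at 81.1% and 76.3%, which lowers the share of each other transcript there. The size of the rise in leaf therefore depends on the scaling, and the link between the pair and this transcript was not tested.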
